A study of Mus musculus with 9 samples.

Results

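Keratin-associated proteins form the matrix of the hair shaft, and their genes are described here as measured in mouse ear dermis. The members were chosen by name, as every gene of the deposited table whose symbol starts with Krtap, which gave 57 of 52550 genes. Dermal sheets were compared in 3 groups of 3 libraries. VAS+H2O mice received vaseline on the skin for 5 days and 200 µl of distilled water by gavage for 10 days, IMQ+H2O mice received imiquimod cream and water, and IMQ+XYF mice received imiquimod cream and 200 µl of Xiao-Yin-Fang (XYF) decoction at 23.3 mg/g. Imiquimod, a Toll-like receptor 7 agonist, is used to induce psoriasis-like dermatitis, and XYF is a decoction of medicinal herbs. All mice were wild-type animals of 8 weeks, of strain C57BL/6 in the labels and C57BL/6J in the methods of the study, which describe males and RNA from a pair of mice without saying whether each library pools them. The p-values below therefore measure the spread between libraries, which may be partly technical.

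Hair is built in the follicle, where matrix cells at its base divide, move upward and fill with keratin filaments. Keratin-associated proteins are then made in the cortex and cuticle of the shaft and bind the filaments together, largely through disulphide bonds between cysteines. They are sorted into high sulphur, ultra-high sulphur and glycine-tyrosine classes by their amino acids, and the number after Krtap names the subfamily. Follicles sit in the dermis, so a dermal sheet can hold the shaft-forming cells. Production of shaft proteins belongs to the growing phase of the hair cycle.

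By subfamily number, 24 members belonged to the high sulphur class (1 to 3, 10 to 14, 16, 24, 26 to 29 and 31), 17 to the ultra-high sulphur class (4, 5, 9 and 17) and 16 to the glycine-tyrosine class (6 to 8 and 19 to 22). To illustrate the classes, a stretch of 30 codons is given for the member of highest mean level in each, chosen where the codons of its class are densest. The coordinates are those of build GRCm38 and the sequences come from GENCODE transcripts. Capitals mark cysteine codons in the first and second lines and glycine or tyrosine codons in the third.
Krtap11-1, high sulphur, chr16:89570875-89570964, minus strand: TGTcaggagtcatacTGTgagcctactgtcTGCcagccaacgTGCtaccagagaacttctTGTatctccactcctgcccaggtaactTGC
Krtap9-1, ultra-high sulphur, chr11:99873590-99873679, plus strand: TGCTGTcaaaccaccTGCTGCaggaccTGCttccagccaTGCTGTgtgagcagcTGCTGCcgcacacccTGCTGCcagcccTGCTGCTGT
Krtap7-1, glycine-tyrosine, chr16:89508011-89508100, minus strand: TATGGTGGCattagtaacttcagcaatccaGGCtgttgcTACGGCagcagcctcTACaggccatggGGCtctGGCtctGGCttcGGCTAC
In these stretches 6 codons of Krtap11-1 and 14 of Krtap9-1 stood for cysteine, and 12 of Krtap7-1 stood for glycine or tyrosine. Pairs of neighbouring cysteine codons recur in Krtap9-1, whereas those of Krtap11-1 stand singly.

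The codon make-up of the 56 members with a coding sequence followed the class of the name in most cases. Cysteine codons made up a median of 37.7% in the ultra-high sulphur class (range 27.2% to 41.5%) and 20.3% in the high sulphur class (8.14% to 42.9%). Glycine and tyrosine codons together made up a median of 63.3% in the glycine-tyrosine class (29.9% to 69.2%), and 14 of its 15 coding members were above 40%. The exception was Krtap7-1 at 29.9%, the member printed above for this class. Some names went against the make-up. Krtap16-3, in a high sulphur subfamily by number, had 59.3% glycine plus tyrosine codons and 8.14% cysteine codons. Krtap28-10 and Krtap28-13, also numbered as high sulphur, had 42.9% and 42.8% cysteine codons, the highest shares of all members. Krtap9-3, numbered as ultra-high sulphur, had 27.2%, the lowest cysteine share of that class. Classes are used below as numbered.

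**Figure D1:**
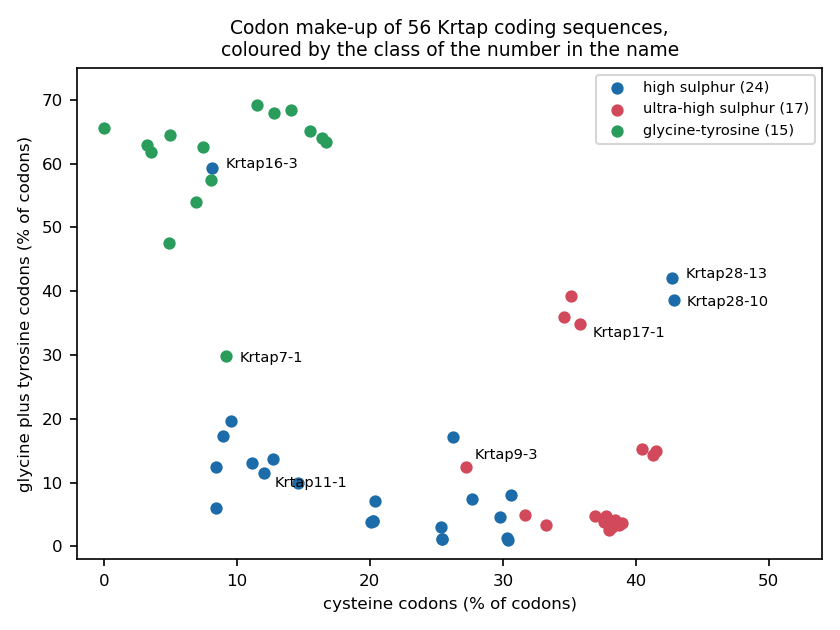
Share of cysteine codons (x axis, %) against the share of glycine plus tyrosine codons (y axis, %) in 56 Krtap coding sequences, 1 point per gene, coloured by the class of its number. Krtap16-3 lies among the glycine-tyrosine genes at 8.14% cysteine, and Krtap28-10 and Krtap28-13 lie at the right edge near 43% cysteine.

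The genes lay in 5 clusters, and 53 of the 57 were single-exon genes. Chromosome 11 held 23 members (11 high sulphur and 12 ultra-high sulphur) between 99550130 and 99993994. Chromosome 16 held 24 members (8 high sulphur and all 16 glycine-tyrosine) between 88610705 and 89571183. Chromosome 7 held the 5 Krtap5 genes, chromosome 10 held 3 members and chromosome 1 held 2.

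Promoters of the members shared a feature that the choice by name did not use. RefSeq windows of 250 bases before to 50 bases after the gene start (GRCm38.p6) matched 50 members. The TATA box letters TATAAA were present on either strand in 42 of these 50 windows (84.0%), against 13.6% of all 32851 windows. On the strand of the gene and between 45 and 16 bases before the start, TATAAA was present in 32 of 50 (64.0%) against 2.14% of all windows. The GC box letters GGGCGG were present on either strand in 0 of 50, against 35.7% of all windows, and CTTTGA, letters of the core that LEF1 and related factors recognise, in 14 of 50 (28.0%) against 5257 of the 32851. The members are relatives by descent, so the 50 windows are not independent, and a match describes letters rather than a bound site. The 150 bases before the start are given for the 3 matched members of highest mean level, because their differences between groups rest on the most counts. Capitals mark TATAAA.
Krtap13-1, chr16:88728712-88728861, plus strand: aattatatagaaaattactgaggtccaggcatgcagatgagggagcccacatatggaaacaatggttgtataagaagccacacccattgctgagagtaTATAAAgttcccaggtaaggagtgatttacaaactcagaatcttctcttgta
Krtap8-1, chr16:89487953-89488102, minus strand: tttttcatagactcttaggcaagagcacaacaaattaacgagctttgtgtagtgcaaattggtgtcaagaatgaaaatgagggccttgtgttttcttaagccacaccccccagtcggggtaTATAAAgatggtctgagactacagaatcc
Krtap11-1, chr16:89571184-89571333, minus strand: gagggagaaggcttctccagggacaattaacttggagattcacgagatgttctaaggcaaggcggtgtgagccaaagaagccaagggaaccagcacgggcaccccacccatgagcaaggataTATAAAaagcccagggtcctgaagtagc
The first base of TATAAA stood 29 bases before the start in Krtap8-1 and 28 in Krtap11-1. In Krtap13-1 it stood 52 bases before the annotated start, outside the window counted above.

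Similar sequences limit how far the counts of neighbouring members can be told apart. Of the 57 members, 41 shared at least one 50-base stretch of transcript with another annotated gene, 15 shared over 20% of their 50-base stretches, and 16 shared none, among them Krtap7-1, Krtap8-1, Krtap11-1, Krtap13-1, Krtap14, Krtap16-1 and Krtap26-1. The coding sequences of Krtap3-2 and Krtap3-3 were identical over their whole length, and the transcripts shared 28.9% and 41.3% of their 50-base stretches with each other. Krtap31-1 and Krtap31-2 were 98.9% identical in coding sequence, Krtap6-1 and Krtap6-5 97.9%, and Krtap4-1 and Krtap4-2 95.5%. The Krtap3 subfamily is shown because its members differ in their counts below. Over its whole coding sequence Krtap3-1 was 82.9% identical to Krtap3-3, and 8.83% of its 50-base stretches occurred in another gene, most often Krtap3-2. The 60 coding bases shown (112 to 171) were picked as the gap-free stretch with the most differences, so they overstate the distance. Capitals mark the 18 positions at which Krtap3-1 differs from Krtap3-2 and Krtap3-3.
Krtap3-1, chr11:99566413-99566472, minus strand: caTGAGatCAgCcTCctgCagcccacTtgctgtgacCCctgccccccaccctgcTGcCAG
Krtap3-2, chr11:99556630-99556689, minus strand: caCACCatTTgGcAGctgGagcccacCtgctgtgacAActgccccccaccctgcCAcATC
Krtap3-3, chr11:99550639-99550698, minus strand: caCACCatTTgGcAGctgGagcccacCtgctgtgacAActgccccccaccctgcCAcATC
How reads with more than 1 equally good position were counted was not stated, so the split between Krtap3-2 and Krtap3-3 is uncertain, as is that of the other pairs named.

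The libraries held 28756305 to 79836881 counts. Marker genes of dermal fibroblasts summed to between 10367 and 25353 CPM (the usual depth-scaled counts, with library sizes adjusted by the trimmed mean of M values, TMM) in the 9 libraries, and so were present throughout. Markers of interfollicular epidermis were present too, at 1929 to 5667 CPM in 8 libraries and 13773 CPM in IMQ+XYF replicate 1. Auricular cartilage markers summed to 1438, 797 and 958 CPM in VAS+H2O replicates 1 to 3, 364, 231 and 315 CPM in IMQ+H2O and 447, 1410 and 776 CPM in IMQ+XYF, with Matn1 at 0 in all libraries. The IMQ+H2O libraries lay below all others for this sum, and of 4 tested markers edgeR called 1 and DESeq2 called 4 lower in IMQ+H2O than in VAS+H2O. In IMQ+XYF against VAS+H2O edgeR called 0 of the 4, 1 had an unadjusted p under 0.05, and DESeq2 called 1 lower. The part of these other tissues in the results was not tested, and in bulk tissue fewer cells of a type and less RNA per cell cannot be told apart.

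Krtap transcripts were a regular part of vaseline-treated dermis and were at or near the detection limit after imiquimod, with or without XYF. A gene was taken as detected in a library above 3 counts, which is 0.0376 to 0.104 unscaled CPM in the imiquimod libraries. In VAS+H2O, 44, 49 and 53 of the 57 members were detected in replicates 1, 2 and 3. In IMQ+H2O the numbers were 2, 2 and 4, and in IMQ+XYF they were 3, 3 and 5. Of the 57 members, 43 were detected in all 3 VAS+H2O libraries, and 35 of these 43 had at most 3 counts in each of the 6 imiquimod libraries. Over the whole table, 21586 genes were detected in all 3 VAS+H2O libraries and 0.343% of them had at most 3 counts in each imiquimod library. A stricter reading gave the same picture, since 22 of the 43 members had 0 counts in all 6 imiquimod libraries, against 0.199% of the 21586 genes. A count of 0 allows up to 3 counts, so these genes were not detectable at this depth rather than shown to be silent.

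**Figure D2:**
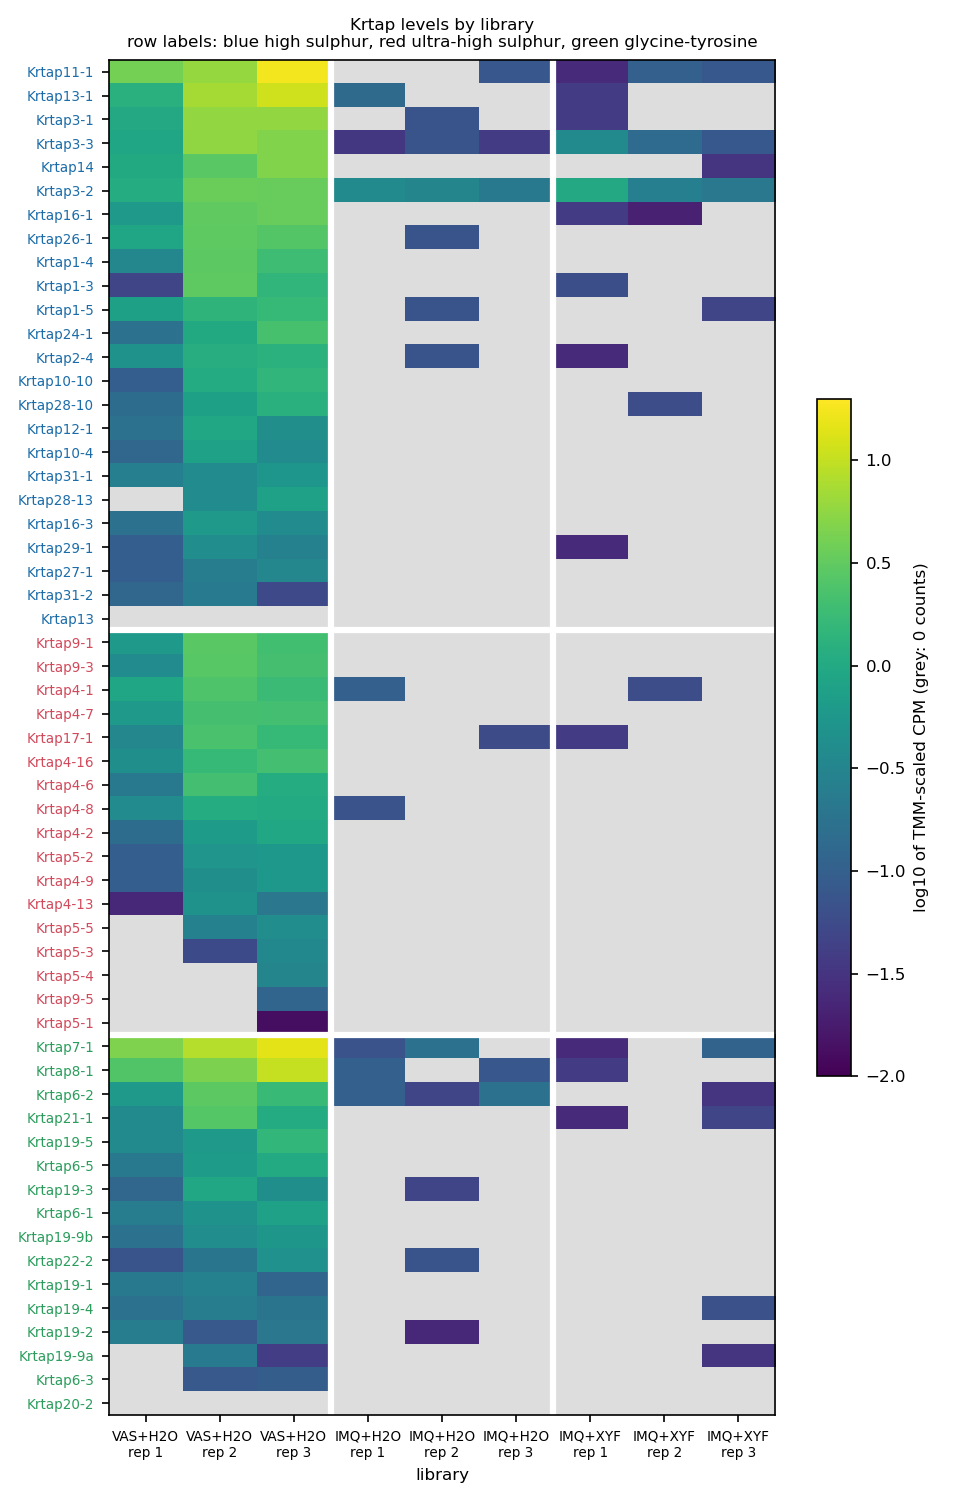
Level of each of the 57 Krtap genes (rows, grouped by class and ordered by their VAS+H2O mean) in each of the 9 libraries (columns), as log10 of TMM-scaled CPM, with 0 counts in grey. The 3 VAS+H2O columns are filled for nearly all rows, while the imiquimod columns are mostly grey except for the rows of Krtap3-2 and Krtap3-3.

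The summed level of the members was 27.9, 94.99 and 119 CPM in VAS+H2O replicates 1 to 3, 0.999, 1.04 and 0.644 CPM in IMQ+H2O, and 1.72, 0.651 and 0.747 CPM in IMQ+XYF. The lowest VAS+H2O library therefore lay above the highest imiquimod library, and the imiquimod groups overlapped each other. The means were 80.5 ± 47.0, 0.895 ± 0.219 and 1.04 ± 0.59 CPM (SD, n = 3). The 3 classes were low together. The high sulphur class went from 44.8 ± 28.0 CPM in VAS+H2O to 0.521 ± 0.176 in IMQ+H2O and 0.879 ± 0.622 in IMQ+XYF. The ultra-high sulphur class went from 13.7 ± 8.32 CPM to 0.0769 ± 0.0876 and 0.0328 ± 0.0308, and none of its 17 members was detected in any imiquimod library. The glycine-tyrosine class went from 21.9 ± 11.7 CPM to 0.298 ± 0.0584 and 0.126 ± 0.150. Class shares of the Krtap counts in VAS+H2O were 49.6% to 57.5% for high sulphur, 14.6% to 20.7% for ultra-high sulphur and 24.1% to 35.3% for glycine-tyrosine genes.

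**Figure D3:**
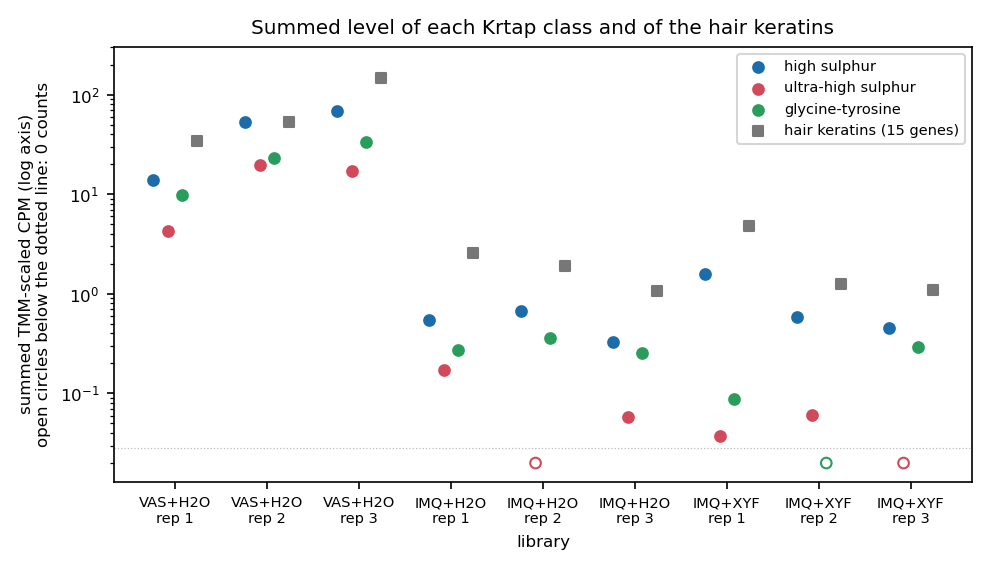
Summed TMM-scaled CPM (log axis) of each Krtap class (circles) and of 15 hair keratins (grey squares) in each library, with classes at 0 counts drawn as open circles below the dotted line. All 4 sums are higher in each VAS+H2O library than in any imiquimod library, and the ultra-high sulphur class is lowest or at 0 in 5 of the 6 imiquimod libraries.

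Within VAS+H2O, replicate 1 stood apart, with lower levels of nearly all members. Among the 43 members detected in all 3 libraries, the level in replicate 2 was a median of 3.69 times that in replicate 1 (range 1.27 to 11.2), and all 43 were higher in replicate 2. Replicate 3 was a median of 3.45 times replicate 1 (range 0.442 to 15.5), with 41 of 43 higher. Replicate 3 was a median of 0.996 times replicate 2 (range 0.241 to 2.95), with 21 of 43 higher in replicate 3, so members differed in both directions. As a description across genes, which share their libraries and are not independent, Pearson's r of log2 CPM was 0.84 between replicates 1 and 2, 0.84 between 1 and 3 and 0.90 between 2 and 3. This spread between libraries enters every test against VAS+H2O.

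**Figure D4:**
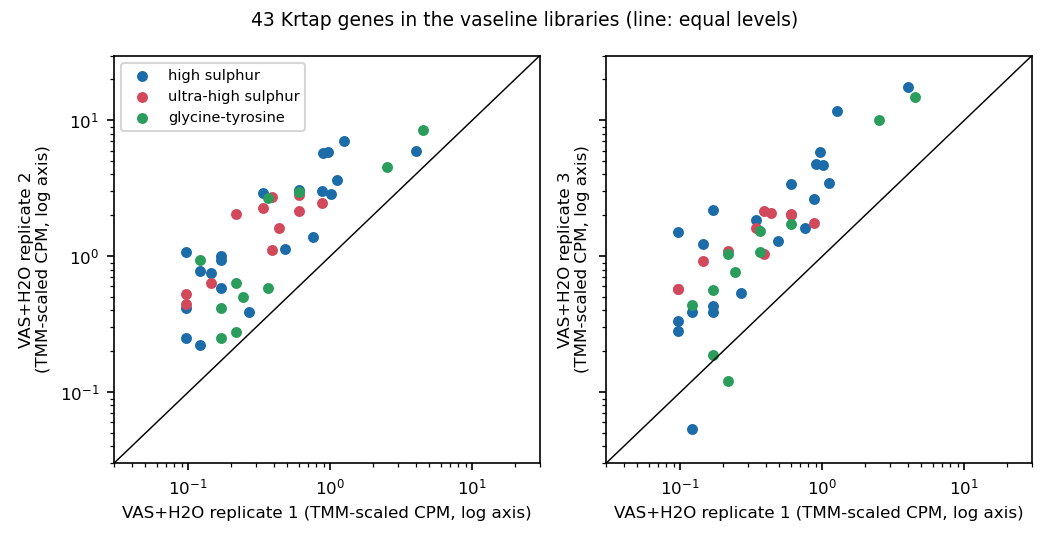
TMM-scaled CPM (log axes) of the 43 Krtap genes detected in all VAS+H2O libraries, replicate 1 on the x axis against replicate 2 (left) and replicate 3 (right), coloured by class, with the line of equal levels. All 43 points on the left and 41 of 43 on the right lie above the line.

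Levels can be compared between genes only per length of transcript. Per kilobase, the VAS+H2O mean was highest for Krtap7-1 at 14.9 ± 8.30 CPM (SD, n = 3), followed by Krtap8-1 at 9.95 ± 6.86, Krtap11-1 at 9.06 ± 7.21, Krtap13-1 at 8.88 ± 6.93 and Krtap3-1 at 6.97 ± 4.64. The ranges of mean ± SD overlapped between neighbours in this order. Much of this spread is shared by genes of the same library, and neighbours were not tested against each other. At the other end, Krtap13 and Krtap20-2 had 0 counts in all 9 libraries and Krtap5-1 had 1 count in all. The Krtap5 genes of chromosome 7, described in the hair cuticle, were low as a group, with 4, 31 and 125 counts for the 5 genes together in VAS+H2O and 0 in every imiquimod library. Krtap5-1, Krtap5-5, Krtap5-2 and Krtap13 shared 60.6%, 36.3%, 28.6% and 24.9% of their 50-base stretches with other genes. How such reads were counted was not stated, so their low counts may be incomplete.

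The change with imiquimod cream is read from IMQ+H2O against VAS+H2O. No group received the cream base without imiquimod, so the drug and its base cannot be told apart. A gene was called at a Benjamini-Hochberg adjusted p of 0.05 or lower and an absolute log2 fold change of 1 or higher in edgeR's quasi-likelihood test, fitted on all 9 libraries. Of the 57 members, 27 passed the filter on low counts, and only Krtap3-2 and Krtap3-3 reached 10 counts in any imiquimod library. Krtap3-3 did so only in IMQ+XYF replicate 1, fewer libraries than the filter asks for. All tested members except Krtap3-2 therefore passed through their VAS+H2O values and had to be lower in IMQ+H2O, Krtap3-3 among them. Of the 27, 10 were called and all 10 were lower, while 0.348% of the 22430 genes tested were called lower. The called members were 8 of high sulphur subfamilies (Krtap11-1, Krtap3-3, Krtap3-1, Krtap14, Krtap16-1, Krtap13-1, Krtap26-1 and Krtap1-5) and 2 of glycine-tyrosine subfamilies (Krtap8-1 and Krtap7-1). The 17 members tested but not called had adjusted p-values up to 0.0913 in edgeR. Counting all members, tested or not, 46 of 57 had every IMQ+H2O library below every VAS+H2O library, against 11.2% of the 35996 genes with any count.

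The number called depended on the fit. DESeq2's Wald test called 39 members lower of the 40 to which it gave an adjusted p, where it called 1.71% of all genes lower, and edgeR on the 6 libraries of these groups alone called 22. Leaving out 1 library gave 0 members without IMQ+H2O replicate 2 or 3 and 8 without VAS+H2O replicate 1. It gave 1 when the library left out was IMQ+H2O replicate 1 or VAS+H2O replicate 2 or 3. Over the whole table these drops left 28, 25, 90, 125, 35 and 28 genes called, in the order named. All 9 libraries gave 78 genes lower and 145 higher. Dropping a library outside the comparison gave 15 members of 315 genes called (IMQ+XYF replicate 1), 23 of 455 (IMQ+XYF replicate 2) or 8 of 179 (IMQ+XYF replicate 3).

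Among the high sulphur genes, Krtap11-1 on chromosome 16 (ENSMUSG00000091212, 89570176 to 89571183) had 166, 213 and 1303 counts in VAS+H2O replicates 1 to 3, 0, 0 and 4 in IMQ+H2O, and 2, 5 and 5 in IMQ+XYF. edgeR gave a log2 fold change of −8.06 ± 0.99 (± SE, as for all log2 fold changes) in IMQ+H2O (edgeR adjusted p 0.0162) and −7.09 ± 0.88 in IMQ+XYF (edgeR adjusted p 0.0164). VAS+H2O replicate 3 was far above the other VAS+H2O libraries, and no imiquimod library came near the lowest of them. Krtap13-1, also on chromosome 16 (88728862 to 88729611), had 52, 255 and 868 counts in VAS+H2O, 4, 0 and 0 in IMQ+H2O and 3, 0 and 0 in IMQ+XYF. Its log2 fold change in IMQ+H2O was −7.49 ± 1.28 (edgeR adjusted p 0.0353). For IMQ+XYF, where 3 counts remained, the ratio was 493-fold lower with an exact 95% interval of 168 to 2394. This and the other exact intervals cover counting error only, not the spread between libraries. All its imiquimod counts came from the first library of each group.

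Krtap14 on chromosome 16 (88818667 to 88826145) had 42, 103 and 351 counts in VAS+H2O, 0 in all IMQ+H2O libraries and 0, 0 and 2 in IMQ+XYF. It was at least 36.6-fold lower in IMQ+H2O, taking 3 counts per library as the floor (edgeR adjusted p 0.0301). The gene overlaps Krtap15 on the opposite strand, so reads of the pair may not be told apart. Krtap16-1 on chromosome 11 (99984710 to 99986597), the longest of the members at 502 codons, had 25, 111 and 252 counts in VAS+H2O and 0 in all IMQ+H2O libraries, a fall of at least 30.1-fold (edgeR adjusted p 0.0350). It had 3, 1 and 0 counts in IMQ+XYF. Krtap26-1 had 36, 108 and 196 counts in VAS+H2O, 0, 3 and 0 in IMQ+H2O and 0 in all IMQ+XYF libraries. It was 90.7-fold lower in IMQ+H2O (exact 95% interval 30.8 to 442, edgeR adjusted p 0.0436) and at least 44.2-fold lower in IMQ+XYF (edgeR adjusted p 0.0291). None of these genes had an imiquimod library within reach of its lowest VAS+H2O library.

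Krtap1-5 on chromosome 11 had 31, 50 and 121 counts in VAS+H2O, 0, 3 and 0 in IMQ+H2O and 0, 0 and 3 in IMQ+XYF. It was 53.9-fold lower in IMQ+H2O (exact 95% interval 18.2 to 263, edgeR adjusted p 0.0495), the call closest to the threshold. Krtap2-4 had 20, 41 and 97 counts in VAS+H2O, 0, 3 and 0 in IMQ+H2O and 2, 0 and 0 in IMQ+XYF. It was 42.1-fold lower in IMQ+H2O without passing the threshold (exact 95% interval 14.2 to 207, edgeR adjusted p 0.0532), and 99.4-fold lower in IMQ+XYF, where it passed (exact 95% interval 27.1 to 828, edgeR adjusted p 0.0335). Krtap1-3 had 2, 109 and 111 counts in VAS+H2O, 0 in IMQ+H2O and 5, 0 and 0 in IMQ+XYF, and did not pass the filter. Its first VAS+H2O library lay within the imiquimod range, unlike those of Krtap1-5 and Krtap2-4.

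The Krtap3 genes differed from one another in what remained after imiquimod. Krtap3-1 (chromosome 11, 99566027 to 99566630) had 40, 210 and 434 counts in VAS+H2O, 0, 3 and 0 in IMQ+H2O and 3, 0 and 0 in IMQ+XYF, 182-fold lower in IMQ+H2O (exact 95% interval 62.2 to 887, edgeR adjusted p 0.0294). Krtap3-3 (99550130 to 99550865) had 37, 206 and 356 counts, then 1, 3 and 2, then 30, 7 and 5. Krtap3-2 (99555823 to 99556853) had 46, 131 and 257 counts, then 11, 13 and 11, then 78, 13 and 13. Krtap3-2 was thus the one member detected in all 6 imiquimod libraries, and Krtap3-3 was detected in all 3 of IMQ+XYF.

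The log2 fold change of Krtap3-2 was −3.19 ± 0.70 in IMQ+H2O (edgeR adjusted p 0.0654) and −2.47 ± 0.65 in IMQ+XYF (edgeR adjusted p 0.0896), so it was not called in either. That of Krtap3-3 was −6.20 ± 0.94 (edgeR adjusted p 0.0247) and −4.19 ± 0.77 (edgeR adjusted p 0.0400). With both genes summed, which removes the doubt about their split, the level was 6.53 ± 3.95 CPM in VAS+H2O, 0.352 ± 0.0859 in IMQ+H2O and 0.681 ± 0.577 in IMQ+XYF (SD, n = 3). The pair made up 6.92% to 9.86% of the Krtap counts in the VAS+H2O libraries, 37.2% to 41.4% in IMQ+H2O and 39.1% to 78.3% in IMQ+XYF. The other 55 members together stood at 0.544 ± 0.137 CPM in IMQ+H2O and 0.357 ± 0.106 in IMQ+XYF, against 74.0 ± 43.4 in VAS+H2O, and no single value among them exceeded 9 counts in an imiquimod library.

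The ultra-high sulphur genes, whose products carry the most cysteine, had 0 of 8 tested called by edgeR in IMQ+H2O, with all 8 at an unadjusted p under 0.05, and 6 called lower in IMQ+XYF. DESeq2 called lower all 11 to which it gave an adjusted p in IMQ+H2O and all 8 in IMQ+XYF. Krtap9-1 on chromosome 11 (99873389 to 99874432) had 25, 102 and 150 counts in VAS+H2O and 0 in all 6 imiquimod libraries. It was at least 23.2-fold lower in IMQ+H2O (edgeR adjusted p 0.0576) and at least 37.1-fold lower in IMQ+XYF (edgeR adjusted p 0.0453). Krtap4-1 had 36, 89 and 132 counts in VAS+H2O, 3, 0 and 0 in IMQ+H2O and 0, 3 and 0 in IMQ+XYF. Krtap4-8 had 16, 40 and 77, then 2, 0 and 0, then 0 in each library. Krtap17-1 had 14, 81 and 120, then 0, 0 and 3, then 3, 0 and 0. The imiquimod groups overlapped for each of these, although edgeR's calls differed between them.

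The small products of most glycine-tyrosine genes are rich in the amino acids of their name, with Krtap7-1 the lowest of the class by codons. Krtap7-1 (ENSMUSG00000056706, chromosome 16, 89507703 to 89508323) had 187, 307 and 1102 counts in VAS+H2O, 2, 7 and 0 in IMQ+H2O and 2, 0 and 7 in IMQ+XYF. The log2 fold change was −6.89 ± 0.97 in IMQ+H2O (edgeR adjusted p 0.0243) and −7.55 ± 0.98 in IMQ+XYF (edgeR adjusted p 0.0173). Krtap8-1 (89487379 to 89487952) had 104, 162 and 755 counts, then 3, 0 and 4, then 3, 0 and 0. In IMQ+H2O its log2 fold change was −6.57 ± 0.92 (edgeR adjusted p 0.0240), and in IMQ+XYF it was 428-fold lower (exact 95% interval 146 to 2081, edgeR adjusted p 0.0163). These 2 genes share no 50-base stretch with another gene, so their counts are not touched by the doubt over similar sequences. Krtap6-2 had 25, 107 and 128 counts in VAS+H2O, 3, 2 and 9 in IMQ+H2O and 0, 0 and 2 in IMQ+XYF. Its log2 fold change in IMQ+H2O was −3.95 ± 0.81, not called (edgeR adjusted p 0.0553), and in IMQ+XYF it was 164-fold lower (exact 95% interval 44.8 to 1358, edgeR adjusted p 0.0221). Krtap19-4 had 7, 9 and 14 counts in VAS+H2O, 0 in IMQ+H2O and 0, 0 and 4 in IMQ+XYF, and was too low to be tested.

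**Figure D5:**
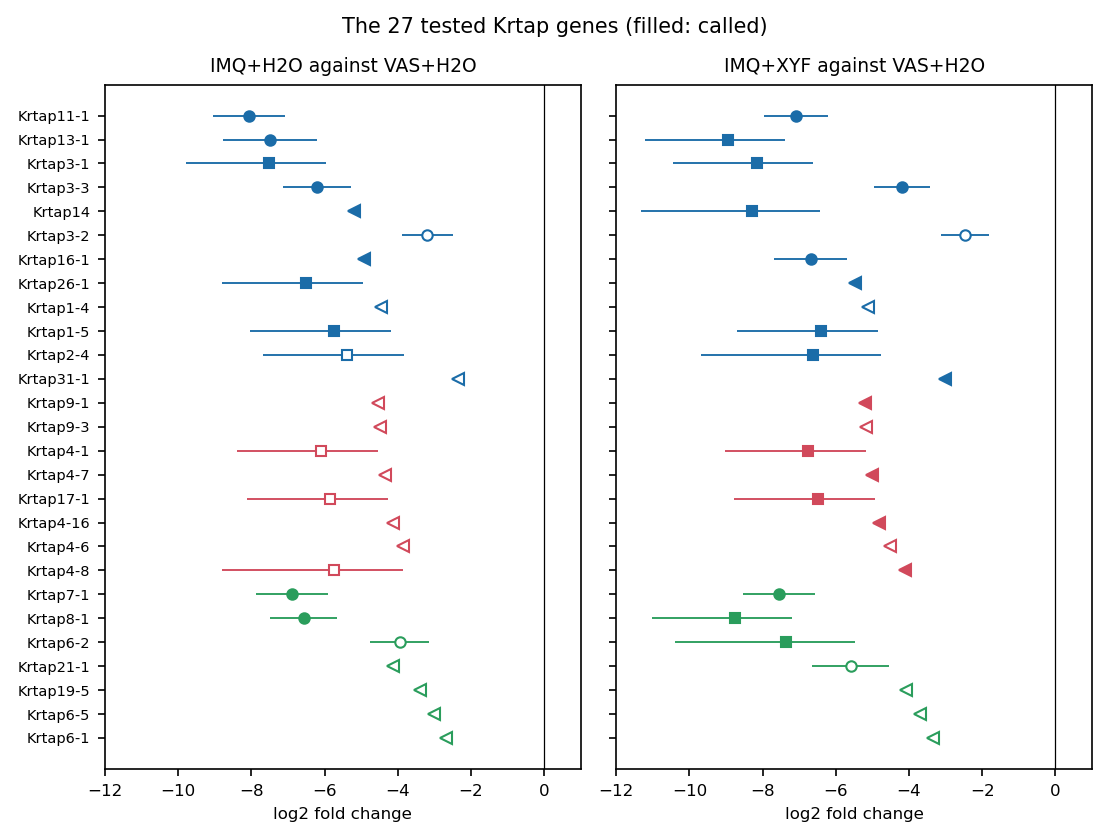
Log2 fold change of the 27 tested Krtap genes in IMQ+H2O (left) and IMQ+XYF (right), each against VAS+H2O, coloured by class (blue high sulphur, red ultra-high sulphur, green glycine-tyrosine). Circles are fitted values with their SE and triangles are bounds where no count remained. Squares are ratios of counts where 1 to 3 counts remained, with exact 95% intervals that cover counting error only. Filled symbols were called. All symbols lie below 0, and Krtap3-2 lies nearest to 0 among the fitted values in both panels.

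Measured against VAS+H2O, the mice given XYF as well as imiquimod also had low Krtap levels. IMQ+XYF against VAS+H2O had 19 of the 27 tested members called, all lower, where 0.508% of all genes tested were called lower. By class these were 10 high sulphur, 6 ultra-high sulphur and 3 glycine-tyrosine genes. All 10 members called in IMQ+H2O were among the 19, and both comparisons share the VAS+H2O libraries. Again 46 of 57 members had every IMQ+XYF library below every VAS+H2O library, against 7.39% of the 35996 genes with any count. DESeq2 called 26 of the 27 members to which it gave an adjusted p, where it called 1.53% of all genes lower. Of the 57, 34 were at 0 in all IMQ+XYF libraries with over 3 counts in some VAS+H2O library. For 33 of these the floor gave a bound above 1, up to at least 44.2-fold lower for Krtap26-1.

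This number called also changed when single libraries were left out. It was 0 without IMQ+XYF replicate 1 or VAS+H2O replicate 2 and 1 without IMQ+XYF replicate 3 or VAS+H2O replicate 3. It was 6 without IMQ+H2O replicate 2, 10 without IMQ+H2O replicate 1 or 3, 14 without VAS+H2O replicate 1 and 22 without IMQ+XYF replicate 2. The calls over all genes moved too. With all 9 libraries 114 genes were called lower and 156 higher. There were 25 genes called without IMQ+XYF replicate 1, 12 without VAS+H2O replicate 2 and 592 without IMQ+XYF replicate 2. On the 6 libraries of these groups alone 3 members were called, among 33 genes.

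The direct comparison of IMQ+XYF with IMQ+H2O asks what XYF changed under imiquimod, and edgeR called 0 of the 27 tested members. Over all tested genes edgeR called 0.00446% lower and 0.00446% higher. Of the members, 1 had an unadjusted p under 0.05, as did 11.7% of all genes tested. DESeq2's Wald test called 0 of the 24 members to which it gave an adjusted p, where it called 0.367% of all genes lower. In 48 of the 57 members both groups were at or under 3 counts in every library, so no difference could be seen at this depth. Krtap6-2 was this member, with an unadjusted p of 0.0251 and an adjusted p of 0.384 in edgeR. The ratio of its depth-scaled counts was 11.0-fold lower in IMQ+XYF, on 2 against 14 counts (exact 95% interval 2.53 to 99.8). All 3 of its IMQ+XYF libraries were below all 3 of its IMQ+H2O libraries, as were those of 6.52% of the genes with any count. No other member was lower in this way.

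Krtap3-2 and Krtap3-3 were the members that reached 10 counts in an imiquimod library, although Krtap3-3 had at most 3 in each IMQ+H2O library. Krtap3-3 had a log2 fold change of 2.01 ± 0.99 (edgeR adjusted p 0.459), and Krtap3-2 one of 0.72 ± 0.69 (edgeR adjusted p 0.694). All IMQ+XYF libraries of Krtap3-3 (0.373, 0.142 and 0.0812 CPM) lay above its IMQ+H2O libraries (0.0344, 0.0728 and 0.0390 CPM). The share of all genes with this order was not computed. IMQ+XYF replicate 1 carried much of both, with 30 of the 42 IMQ+XYF counts of Krtap3-3 and 78 of the 104 of Krtap3-2. Without that library the log2 fold changes were 1.12 and −0.32. The same library held the 13773 CPM of interfollicular epidermis markers given above, against 1929 to 4729 CPM in the other imiquimod libraries. In IMQ+XYF against IMQ+H2O, 0 of the 7 markers of this list were called by edgeR, 5 had an unadjusted p under 0.05, and DESeq2 called 2 higher. The part of these markers in the Krtap3 values was not tested.

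Other genes of the hair follicle, from lists of known markers, give the setting of these values. Hair keratins, the filaments that keratin-associated proteins bind, summed to 34.5, 53.1 and 145 CPM in VAS+H2O, 2.58, 1.89 and 1.07 in IMQ+H2O, and 4.78, 1.26 and 1.10 in IMQ+XYF. Of 13 tested hair keratins 10 were called lower in each imiquimod group against VAS+H2O. The Krtap sum was 0.809, 1.79 and 0.817 times the hair keratin sum in the VAS+H2O libraries and 0.359 to 0.676 times in the imiquimod libraries. Both sums were thus low in the same libraries. The hair keratin sum was the larger in all libraries except VAS+H2O replicate 2, but the sums are not scaled to transcript length and do not rank the families.

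Inner root sheath genes, which encase the growing shaft, summed to 114 to 437 CPM in VAS+H2O and 4.96 to 38.5 CPM in the imiquimod libraries. Of 8 tested, edgeR called 2 lower in IMQ+H2O and 5 in IMQ+XYF, with all 8 at an unadjusted p under 0.05 in each group. DESeq2 called 4 and 6 lower. Other proteins of the hair shaft, such as S100a3 and Padi3, had 2 of 8 called lower by edgeR in each group, with 3 and 4 at an unadjusted p under 0.05. DESeq2 called 3 of them lower in each group and 1 higher in IMQ+XYF. Their sum was 215 to 237 CPM in VAS+H2O and 137 to 507 CPM under imiquimod. Every IMQ+H2O library lay below every VAS+H2O library for this sum, while the IMQ+XYF libraries lay on both sides of the VAS+H2O range. The 507 CPM was that of IMQ+XYF replicate 1, the library with 13773 CPM of interfollicular epidermis markers. The part of epidermis in this sum was not tested. Regulators of the hair matrix, such as Hoxc13 and Foxn1, summed to 124 to 166 CPM in VAS+H2O and 74.7 to 127 CPM under imiquimod. Of 9 tested, edgeR called 1 lower in IMQ+H2O and 0 in IMQ+XYF, with 6 and 3 at an unadjusted p under 0.05. DESeq2 called 3 and 0 lower. Outer root sheath and bulge genes had 0 of 8 called by edgeR in either group, with 2 and 4 at an unadjusted p under 0.05, and DESeq2 called 1 lower in each group and 1 higher in IMQ+XYF.

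Markers of other cells were measured in the same libraries. Neutrophil markers summed to 4.22 to 16.6 CPM in VAS+H2O and 150 to 550 CPM in the imiquimod libraries. Of 3 tested, edgeR called 2 higher in each group, where it called 0.646% (IMQ+H2O) and 0.695% (IMQ+XYF) of all genes tested higher. DESeq2 called 4 and 3 of the 4 listed markers higher. Sebaceous gland markers, from a gland attached to the follicle, summed to 8289 to 12565 CPM in VAS+H2O and 4055 to 6960 CPM under imiquimod, with 0 of 5 called by edgeR in either group, 3 and 2 at an unadjusted p under 0.05, and 0 and 2 called lower by DESeq2. Melanocyte markers summed to 49.4 to 79.7 CPM and 23.6 to 73.0 CPM, with 0 of 5 called by either tool in either group and 0 and 1 at an unadjusted p under 0.05. Their part in the Krtap values was not tested.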

How the data were processed

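RNA of ear dermal sheets was sequenced in 9 libraries. The deposited table holds raw counts per gene, made by the authors from STAR 2.5 alignments to GRCm38 with Ensembl annotation and StringTie assembly; the counter, its strand setting and its use of multiply aligned reads were not given in the sources used here. Among the Krtap values in the imiquimod libraries 3 stood 19 times and 1 stood 3 times, whereas over all genes 1 was commoner than 3 (12898 against 10304 values). Whether each count is 1 read was not tested, and exact intervals and floors take it as such and cover counting error only. Libraries held 28756305 to 79836881 counts. Counts were tested with edgeR 4.0.16 (R 4.3.3) after filterByExpr and TMM scaling, in 1 quasi-likelihood fit by group over all 9 libraries, with Benjamini-Hochberg adjustment over 22430 genes. The code was tested on simulated data. DESeq2 1.42.0 and other settings were alternatives. A group at 0 was set to 3 counts per library for bounds, and groups with 1 to 3 counts were given as ratios with exact conditional 95% intervals. Sequence features came from GENCODE vM21 and RefSeq promoter windows, with codon shares in place of the planned protein sequences.

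Members are all genes whose symbol starts with Krtap. Named members were the 10 of highest mean CPM, those called (at most 15, by adjusted p), the highest of each class and those above 3 counts under imiquimod (at most 10). Members named for sequence features or lowest counts were chosen after their values were seen. The members and lists were chosen with earlier results of these data known. Replicates differed by more than counting error. The replicate numbers came from the sample titles and were not used as pairs.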

Additional observations from a re-analysis of the deposited data

How the results depend on the processing

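Low counts under imiquimod and 3 libraries per group limit these results, and VAS+H2O replicate 1 held fewer Krtap counts than the other VAS+H2O libraries. DESeq2's Wald test moved the number of members called in IMQ+H2O against VAS+H2O from 10 to 39, and fitting only the 6 libraries compared moved it to 22, and to 3 from 19 in IMQ+XYF against VAS+H2O. Leaving out 1 library gave 0 to 23 and 0 to 22 members called. The cause was not tested. With a replicate block the numbers were 2 and 2. Same-numbered libraries correlated between −0.18 and 0.12 in their deviations from the group means, so the numbers were not taken to pair them. DESeq2 size factors, no filter, adjusted p alone and, chosen after seeing the data, near-identical genes summed stayed within 1.5 times in both comparisons, and IMQ+XYF against IMQ+H2O stayed at 0 in all settings. At 1 count or more instead of above 3, the median number of members detected moved from 2 to 8 in IMQ+H2O and from 3 to 10 in IMQ+XYF. Of 568 alternative values of named genes, 363 stayed on their side of the call, 175 lost it, 27 gained it and 3 reversed, all in IMQ+XYF against IMQ+H2O and none called. Leaving out 1 library, the log2 fold change ran from −2.16 to 0.81 for Krtap7-1 (positive without IMQ+H2O replicate 2), from −3.84 to 2.93 for Krtap13-1 (positive without IMQ+H2O replicate 1) and from −0.32 to 1.08 for Krtap3-2 (negative without IMQ+XYF replicate 1).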

Other observations

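A relative of the members stands in the table under another symbol. The gene that GENCODE names Krtap15 is listed as 4930553J12Rik, and had 69, 196 and 529 counts in VAS+H2O replicates 1 to 3, 0 in all IMQ+H2O libraries and 0, 0 and 2 in IMQ+XYF. It was at least 60.6-fold lower in IMQ+H2O (edgeR adjusted p 0.0247). It lies on the strand opposite to Krtap14 and is not counted among the 57.

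Reference genes outside the list that share a 50-base stretch with a member, most of them named only by a predicted-gene symbol, were mostly low under imiquimod too. Of 66 such genes in the table, 55 had over 3 counts in a VAS+H2O library and 4 in an imiquimod library. These 4 are named after their values were seen. Gm11568, which shared 277 stretches with members, had 19, 56 and 121 counts in VAS+H2O, 0 in IMQ+H2O and 3, 0 and 5 in IMQ+XYF. AC161180.2, which shared 5 stretches, had 33, 24 and 66 counts in VAS+H2O, 33, 36 and 25 in IMQ+H2O and 20, 20 and 23 in IMQ+XYF. AC125444.3, which shared 20 stretches, had 14, 9 and 53, then 7, 11 and 15, then 33, 13 and 24. In AC161180.2 and AC125444.3 the imiquimod libraries thus overlapped those of VAS+H2O. AC125444.5, which shared 7 stretches, had 4, 26 and 116, then 3, 0 and 1, then 2, 5 and 5, and its lowest VAS+H2O library lay within the IMQ+XYF range.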
